A study of Mus musculus with 24 samples.

Results

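Claudins and keratins are the transcripts by which an epithelial cell is usually recognised, and 8 of them were read out of 35591 genes in a raw count table. These are the claudin genes Cldn3, Cldn4, Cldn6 and Cldn7 and the simple-epithelial keratin genes Krt7, Krt8, Krt18 and Krt19. They were taken by name, each matched 1 row, and all 8 passed the filter on low counts in every comparison. Their levels were followed in 24 poly(A) RNA-seq libraries from primary male mouse embryonic stem cells (mESCs) that were differentiated towards neuromesodermal progenitors (NMPs), the caudal embryonic cells that give rise to spinal cord and somites. There were 3 wt lines (Smchd1 fl/+) and 3 het lines (Smchd1 del/+), each line sampled in DME LIF medium on day 0 and then on day 2, day 2.5 and day 3 as it differentiated. Smchd1 encodes a chromatin protein, and the het lines tested whether carrying a single functional zygotic copy of it changes expression when the oocyte had a normal supply. All 6 lines came from 1 cross, of a Cast mother with wild-type Smchd1 (+/+) and a father on the C57BL/6 background that carried Smchd1 del/fl and the MMTV-Cre transgene (T/+). The wt lines therefore carry a paternal floxed allele and every line is an interstrain hybrid. In both genotypes the medium was N2B27 with bFGF after day 0, and CHIR99021, which activates Wnt signalling, was added to it on day 2. The day 0 libraries were therefore taken before N2B27 and bFGF, and the day 2 libraries before this addition. Only the libraries of day 2.5 and day 3 followed it. Each line was derived from a separate blastocyst, and the 3 lines are the replicates of a group, so that the same lines recur on every day.

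Claudins are membrane proteins that form the strands of the tight junction and set which ions and solutes pass between neighbouring epithelial cells. Keratins form intermediate filaments only as pairs of a type II protein, here Krt7 or Krt8, with a type I protein, here Krt18 or Krt19, and Krt8 with Krt18 is the pair that simple epithelia and the early embryo use. Mouse embryonic stem cells adhere through E-cadherin junctions and the caudal epiblast, where NMPs reside, is an epithelium, whereas cells that leave it as mesoderm give up such junctions.

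On the GRCm38 build the genes fall into small clusters. Cldn4 (chromosome 5, 134945119 to 134946934, minus strand) and Cldn3 (chromosome 5, 134986214 to 134987472, plus strand) are single-exon genes that lie 39.3 kb apart with no annotated gene between them. Cldn6 lies on chromosome 17 (23679249 to 23682446, plus strand) with its relative Cldn9 137 bases away, and Cldn7 on chromosome 11 (69964779 to 69967885, plus strand). Krt8 (chromosome 15, 101996698 to 102004482, minus strand) and Krt18 (chromosome 15, 102028180 to 102032027, plus strand) are neighbours 23.7 kb apart, and Krt7 (chromosome 15, 101411043 to 101430313, plus strand) lies 566 kb from Krt8. Gm36026, on the plus strand, is the 1 annotated gene whose lower end lies between those of Krt8 and Krt18. It overlaps Krt8 and shares 101 bases with its exons. Krt19 lies on chromosome 11 (100140810 to 100148665, minus strand). Of the 75-base stretches of the Krt8 transcript, 76.5% occur in no other annotated transcript, since Krt8 shares sequence with Gm36026 and the pseudogene Krt8-ps. For the other 7 genes this share was 100% each, and the Krt8 counts are uncertain in this respect. Gm36026 held 1 to 34 counts per library, and Krt8-ps had no row under that name in the count table. Wbscr25 and Gm671, which overlap the ends of Cldn3 and Krt7 on the other strand, held at most 6 and 2 counts per library, and the sources used here do not say whether counting used strand.

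Promoter windows of 300 bases, from 250 before to 50 after a transcript start, were given by RefSeq (GRCm38.p6) for 7 of the 8 genes, Cldn3, Cldn4, Cldn6, Cldn7, Krt7, Krt8 and Krt18. The E-box CACCTG, which reads CAGGTG on the other strand, is the sequence that repressors of epithelial genes such as Snail and Zeb proteins are known to bind, and it was searched on both strands for that reason. At least 1 match lay in a window of each of the 7 genes, beside 22.6% of the 27025 genes with a window, and 7 of their 8 windows held it, beside 20.2% of all 32851 windows. The windows of the 7 genes were 52.0% to 66.3% G and C, where the median of all windows was 52.7%. For 6 of the genes 1 match is shown with 12 bases on either side, 5′ to 3′ on the strand of the gene, and capitals mark the E-box. It is the match nearest to the transcript start among those upstream of it, or for Cldn3 the only match, which lay downstream:
Cldn3: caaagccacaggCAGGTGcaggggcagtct
Cldn4: ctttaactgcagCACCTGtggccgcccttt
Cldn6: gggaaacgcacgCAGGTGgctatcgccgca
Cldn7: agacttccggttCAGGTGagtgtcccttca
Krt7: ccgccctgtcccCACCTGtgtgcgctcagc
Krt18: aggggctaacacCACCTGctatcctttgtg
These stretches lie at chr5:134986233-134986262 for Cldn3, chr5:134946931-134946960 for Cldn4, chr17:23679260-23679289 for Cldn6, chr11:69965352-69965381 for Cldn7, chr15:101412347-101412376 for Krt7, chr15:102027990-102028019 for Krt18. Counted from the transcript start, the first base of the E-box lay at -14 for Cldn4, -93 for Cldn6, -57 for Cldn7, -44 for Krt7, -214 for Krt18 and 31 for Cldn3. These starts are those of RefSeq transcripts, and for Cldn6, Cldn7, Krt7, Krt8 and Krt18 they lie inside the annotated gene given above, as do the stretches shown for Cldn6, Cldn7 and Krt7. Further matches not shown began at 11 for Cldn4, 40 for Cldn6 and -97 for Cldn7. Of the other motifs searched on both strands, AP-1 (TGANTCA) was found in the window of Cldn4 alone (7.81% of all windows), AP-2 (GCCNNNGGC) in those of Cldn3, Krt7 and Krt18 (16.6%) and the letters of the TATA box (TATAAA) in that of Krt8 (13.6%), where they began at -3 and -1, on the start itself. The letters of the Grainyhead (AACCNGTT, 2.09%) and TCF/LEF (CTTTGA, 16.0%) motifs were in none of them. These matches describe the letters of the windows and not binding.

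The libraries held 7.10 to 20.8 M counts, in units of 1000000 (median 17.9 M), and a count of 3 in them stood for 0.144 to 0.422 counts per 1000000 (CPM). The library of wt line 2 on day 2.5 was the shallowest, and the next shallowest held 14.4 M. Smchd1, the gene that differs by genotype, was lower in every het library than in every wt library on each day, with log2 fold changes of -0.61, -0.75, -0.60 and -0.88 on days 0, 2, 2.5 and 3. Up to day 2.5 the cell state followed its label: all 10 pluripotency markers fell from day 0 to day 2 in both genotypes, beside 21.9% of all genes in wt and 28.1% in het. Of 10 NMP markers 9 rose from day 2 to day 2.5 in both, beside 14.6% and 21.8%, and the other, Sox2, which is on both lists, fell. From day 2.5 to day 3, 3 of the 10 NMP markers rose and 3 fell in wt, and 3 rose and 2 fell in het. Of all genes, 8.99% rose and 10.1% fell in wt in this step, and 13.8% rose and 16% fell in het. Markers of endoderm, another epithelial cell type, were present as well, with a summed level of 3398 to 5342 CPM in wt and 2112 to 2865 CPM in het libraries on day 0, and none of the 22 was at 3 counts or fewer in every library. This sum was higher in every later library of the same genotype, as given below for days 2 and 3. In bulk RNA fewer cells of a type and less RNA per cell cannot be told apart.

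Levels of different genes were compared as RPKM, that is CPM divided by kilobases of merged exon. Krt18 had the highest mean of the 8 in every group, and Krt7 and Cldn3 had the lowest pair of means in every group. In wt cells on day 0, Krt18 stood at 66.3 ± 3.66 RPKM (SD, n = 3) and Krt8 at 64.02 ± 3.64 RPKM, and the ranges of these neighbours in the order overlapped. Cldn4 followed at 48.1 ± 4.14 RPKM, Cldn6 at 32.3 ± 0.571 RPKM and Krt19 at 16.4 ± 1.29 RPKM, each range apart from the next. Cldn7 at 6.92 ± 0.495 RPKM, Krt7 at 3.36 ± 0.375 RPKM and Cldn3 at 2.25 ± 0.407 RPKM closed the order, again with no overlap. By day 3 Cldn6 had moved up to 90.5 ± 13.5 RPKM in wt cells, where its range overlapped those of Krt18 (93.1 ± 12.5 RPKM) and Krt8 (79.2 ± 5.14 RPKM). Krt18 was the highest of the 8 in 19 of 24 libraries, Krt8 in 4 and Cldn6 in 1. Krt7 was the lowest in 17 and Cldn3 in 7, but Krt7 has a long annotated exon set, and with the length of its longest transcript its mean over the 24 libraries was 4.36 RPKM in place of 2.53 RPKM, above the 3.57 RPKM of Cldn3.

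**Figure D1:**
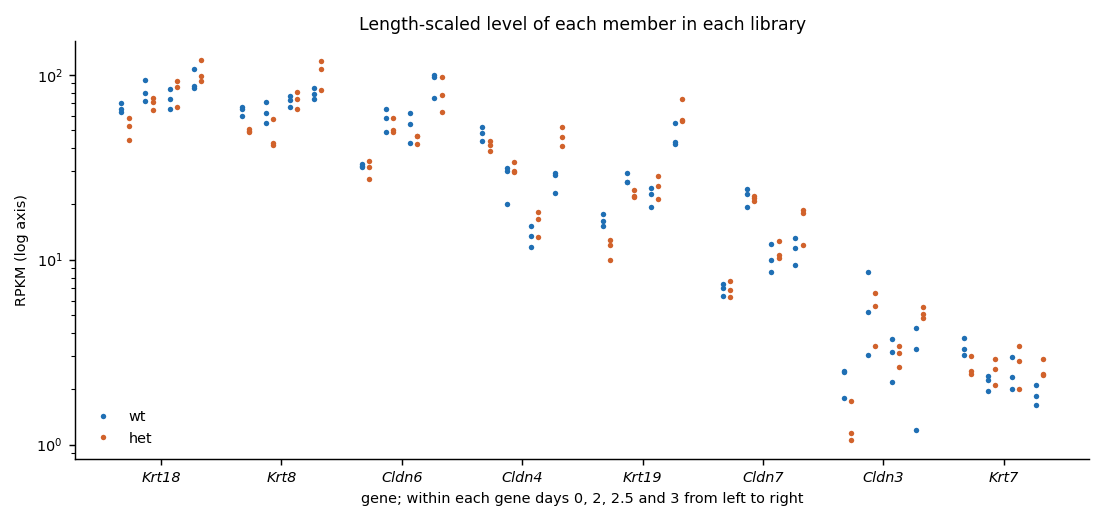
Length-scaled level (RPKM, log axis) of each gene in each of the 24 libraries, with the days from left to right within each gene and 1 point per line, wt in blue and het in orange. Krt18 has the highest mean on every day in both genotypes, and Krt7 and Cldn3 lie at the bottom.

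Few relatives shared this range. Of the 23 other claudin genes in the table, 19 stayed under 1 RPKM in every library, and Cldn12 was the most abundant with a mean of 17.5 RPKM. Of the 15 other keratin genes examined, 11 stayed under 1 RPKM in every library. Krt42 and Krt17, the most abundant of these, reached 14.3 and 12.8 RPKM in their highest library and were listed at 0 in their lowest.

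Over the 3 days the 8 genes did not move as a block. From day 0 to day 2 the claudin genes Cldn3, Cldn6 and Cldn7 and the type I keratin genes Krt18 and Krt19 rose in both genotypes while Cldn4 fell. In the step after CHIR99021 was added, Cldn4 and Cldn7 dropped by about 1 log2 unit in both genotypes. From day 2.5 to day 3 Cldn4, Cldn6 and Krt19 rose again in both. A change is called here when its adjusted p in edgeR's quasi-likelihood test is under 0.05, and values per library are CPM after TMM scaling, edgeR's correction of library size.

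**Figure D2:**
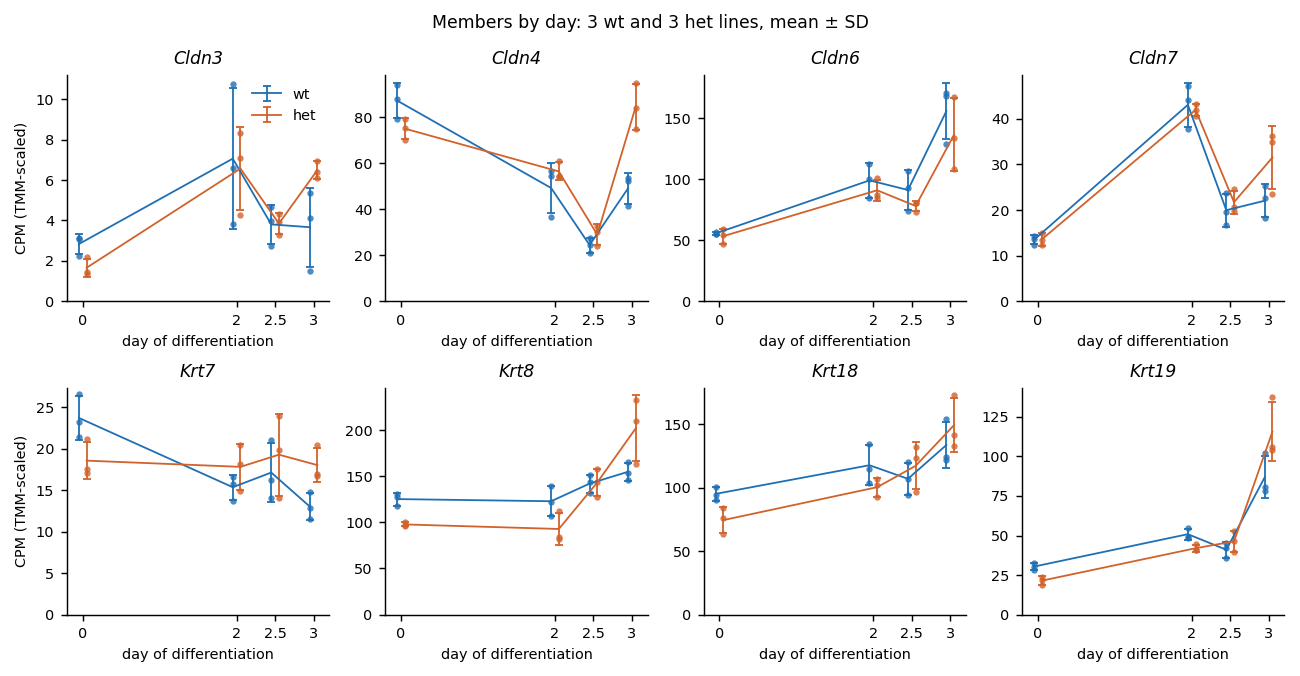
CPM (TMM-scaled) of each gene against the day of differentiation, 1 point per line and lines with error bars for the mean ± SD of 3 lines, wt in blue and het in orange. Cldn4 is lowest on day 2.5 and Cldn7 highest on day 2 in both genotypes, and Krt19 is highest on day 3.

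Among the claudins, Cldn4, a barrier-forming claudin that with Cldn3 also serves as the receptor of a clostridial enterotoxin, was lowest on day 2.5 in both genotypes. Cldn4 in wt lines 1, 2 and 3 stood at 94.3, 79.3 and 88.2 CPM on day 0, 54.7, 36.5 and 56.6 CPM on day 2, 27.6, 21.2 and 24.5 CPM on day 2.5, and 53.6, 41.5 and 52.3 CPM on day 3. In het lines Cldn4 stood at 75.6, 79.4 and 70.2 CPM on day 0, 54.6, 60.99 and 53.9 CPM on day 2, 32.9, 24.1 and 30.1 CPM on day 2.5, and 84.2, 74.95 and 94.95 CPM on day 3. The values ran down to day 2.5 in all 6 lines and up again by day 3, and on day 3 the het lines all lay above the wt lines. From day 0 to day 2 Cldn4 fell in wt (log2 fold change -0.82 ± 0.16 SE, adjusted p = 0.000856) and in het (log2 fold change -0.39 ± 0.092 SE, adjusted p = 0.00176). It fell again from day 2 to day 2.5 in wt (log2 fold change -0.99 ± 0.19 SE, adjusted p = 0.00196) and in het (log2 fold change -0.97 ± 0.13 SE, adjusted p = 3.63e-05), and the groups did not overlap in either step. It then rose 1.99-fold from day 2.5 to day 3 in wt (log2 fold change 0.99 ± 0.15 SE, adjusted p = 0.00263) and 2.84-fold in het (log2 fold change 1.51 ± 0.13 SE, adjusted p = 4.10e-05). Its 8 group means ran from 24.4 CPM on day 2.5 in wt to 87.3 CPM on day 0 in wt, with het on day 3, at 84.7 CPM, next to the top and overlapping it.

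Cldn6, the claudin typical of embryonic epithelium, was lowest on day 0 and highest on day 3 in both genotypes. Cldn6 in wt lines 1, 2 and 3 stood at 55.2, 56.6 and 54.8 CPM on day 0, 84.2, 100.4 and 112 CPM on day 2, 73.7, 92.7 and 107 CPM on day 2.5, and 129, 171 and 168 CPM on day 3. In het lines Cldn6 stood at 58.9, 46.8 and 54.3 CPM on day 0, 84.9, 101 and 86.9 CPM on day 2, 73.04, 80.5 and 80.4 CPM on day 2.5, and 108, 134 and 167 CPM on day 3. The day 0 values lay below all later ones, and within each genotype every day 3 library lay above every earlier one. The rise to day 2 was called in wt (log2 fold change 0.84 ± 0.12 SE, adjusted p = 9.52e-05) and in het (log2 fold change 0.79 ± 0.10 SE, adjusted p = 9.82e-06). Its change to day 2.5 was -0.11 ± 0.15 in wt (adjusted p = 0.633) and -0.23 ± 0.10 in het (adjusted p = 0.0706), and it was lower on day 2.5 than on day 2 in each of the 6 lines, with no overlap in het. Its rise from day 2.5 to day 3 was nearly the same in wt (log2 fold change 0.77 ± 0.15 SE, adjusted p = 0.0081) and in het (log2 fold change 0.77 ± 0.13 SE, adjusted p = 0.00145).

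Cldn7, which in many epithelia lies along the lateral membrane as well as in the junction, peaked on day 2. Cldn7 in wt lines 1, 2 and 3 stood at 14.3, 12.4 and 13.7 CPM on day 0, 47.3, 37.8 and 44.2 CPM on day 2, 23.8, 19.5 and 16.6 CPM on day 2.5, and 22.6, 18.1 and 25.4 CPM on day 3. In het lines Cldn7 stood at 15.02, 12.3 and 13.4 CPM on day 0, 40.6, 43.3 and 42.01 CPM on day 2, 19.8, 20.8 and 24.6 CPM on day 2.5, and 23.5, 36.2 and 34.9 CPM on day 3. All 6 lines on day 2 exceeded every library of the other days. Cldn7 rose 3.22-fold to day 2 in wt (log2 fold change 1.69 ± 0.16 SE, adjusted p = 2.05e-06) and 3.13-fold in het (log2 fold change 1.65 ± 0.13 SE, adjusted p = 3.20e-08). It then fell in wt (log2 fold change -1.10 ± 0.18 SE, adjusted p = 0.000757) and in het (log2 fold change -0.95 ± 0.12 SE, adjusted p = 2.83e-05). The change from day 2.5 to day 3 was 0.13 ± 0.19 in wt (adjusted p = 0.666). Cldn7 rose in het in this step (log2 fold change 0.50 ± 0.16 SE, adjusted p = 0.0346), although the groups overlapped. That last call was lost without line 1 (log2 fold change 0.44, adjusted p = 0.12) or line 2 (0.47, adjusted p = 0.0978) of day 2.5 and without line 2 (0.39, adjusted p = 0.116) or line 3 (0.43, adjusted p = 0.135) of day 3.

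Cldn3, the near neighbour of Cldn4 and the least abundant of the 4, was also the most uneven between wt lines, with a coefficient of variation of 49.3% on day 2 and 53.6% on day 3. Cldn3 in wt lines 1, 2 and 3 stood at 2.24, 3.15 and 3.11 CPM on day 0, 10.8, 3.84 and 6.60 CPM on day 2, 3.99, 4.67 and 2.76 CPM on day 2.5, and 5.36, 1.51 and 4.13 CPM on day 3. In het lines Cldn3 stood at 1.46, 1.34 and 2.17 CPM on day 0, 7.10, 8.33 and 4.29 CPM on day 2, 4.32, 3.92 and 3.30 CPM on day 2.5, and 6.42, 6.11 and 6.96 CPM on day 3. These CPM rest on 21 to 219 counts per library, and on day 2 wt line 1 lay well above the other wt lines. Cldn3 rose to day 2 in wt (log2 fold change 1.33 ± 0.40 SE, adjusted p = 0.0152) and in het (log2 fold change 2.00 ± 0.36 SE, adjusted p = 0.000224), and the wt call was lost without line 1 of day 2 (log2 fold change 0.88, adjusted p = 0.12). The change to day 2.5 was -0.90 ± 0.39 in wt (adjusted p = 0.102), and it was called without line 2 of day 2 (-1.21, adjusted p = 0.0313) and with no filter beyond 1 count (-0.91, adjusted p = 0.0471). In het Cldn3 fell in this step (log2 fold change -0.78 ± 0.30 SE, adjusted p = 0.049). That call was lost with the line as a replicate block (-0.74, adjusted p = 0.0578) and on leaving out any 1 library but line 3 of day 2, with log2 fold changes of -0.85 to -0.57. It was lost as well with DESeq2 size factors (-0.76, adjusted p = 0.0503), library totals (-0.69, adjusted p = 0.0741) and a single fit of all 24 libraries (-0.76, adjusted p = 0.111). Cldn3 rose from day 2.5 to day 3 in het (log2 fold change 0.72 ± 0.21 SE, adjusted p = 0.0238) and its change in wt was -0.037 ± 0.44 (adjusted p = 0.965). The het call was lost without line 2 (0.73, adjusted p = 0.0539) or line 3 (0.64, adjusted p = 0.059) of day 2.5 or line 3 of day 3 (0.67, adjusted p = 0.0922), and in a single fit of all 24 libraries (0.74, adjusted p = 0.173).

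Of the type II keratins, Krt8 was the abundant partner. Krt8 in wt lines 1, 2 and 3 stood at 128, 117 and 131 CPM on day 0, 107, 122 and 139.9 CPM on day 2, 132, 151 and 144 CPM on day 2.5, and 146, 166 and 154 CPM on day 3. In het lines Krt8 stood at 97.6, 100.1 and 95.7 CPM on day 0, 83.9, 113 and 82.2 CPM on day 2, 158, 144 and 128 CPM on day 2.5, and 210.4, 163 and 233 CPM on day 3. Wt and het lines separated on day 0, when every het library lay below every wt library, and the highest value of all belonged to a het library of day 3. Krt8 did not pass the test from day 0 to day 2 in wt (-0.019 ± 0.12, adjusted p = 0.913) or in het (-0.058 ± 0.11, adjusted p = 0.664). It was called lower in het without line 2 of day 2 (-0.22, adjusted p = 0.0337). From day 2 to day 2.5 it rose in het (log2 fold change 0.62 ± 0.12 SE, adjusted p = 0.000864) and its change in wt was 0.22 ± 0.12 (adjusted p = 0.208). It rose further in het from day 2.5 to day 3 (log2 fold change 0.46 ± 0.12 SE, adjusted p = 0.0169), a call lost without line 3 of day 3 (0.35, adjusted p = 0.0897). The wt change in this step was 0.12 ± 0.10 (adjusted p = 0.46).

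Krt7, the type II keratin of ducts and of trophoblast, was the rarest of the 4 keratins. Krt7 in wt lines 1, 2 and 3 stood at 23.2, 26.6 and 21.4 CPM on day 0, 16.6, 15.7 and 13.7 CPM on day 2, 16.3, 21.02 and 14.1 CPM on day 2.5, and 12.9, 14.8 and 11.5 CPM on day 3. In het lines Krt7 stood at 17.04, 21.1 and 17.5 CPM on day 0, 18.1, 20.4 and 14.9 CPM on day 2, 23.9, 19.9 and 14.1 CPM on day 2.5, and 16.9, 16.7 and 20.4 CPM on day 3. All wt values of day 0 lay above those of every later day, while the het values of all 4 days overlapped. Krt7 fell from day 0 to day 2 in wt (log2 fold change -0.62 ± 0.18 SE, adjusted p = 0.0112), a call lost without line 2 of day 0 (-0.53, adjusted p = 0.0575). Its change in het was -0.042 ± 0.16 (adjusted p = 0.843). No later step of Krt7 passed the test, with log2 fold changes of 0.16 and -0.39 in wt and 0.11 and -0.14 in het.

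Of the type I keratins, Krt18 was the more abundant. Krt18 in wt lines 1, 2 and 3 stood at 101, 90.4 and 94.4 CPM on day 0, 115, 104 and 135 CPM on day 2, 94.5, 120.1 and 107 CPM on day 2.5, and 122, 155 and 125 CPM on day 3. In het lines Krt18 stood at 75.8, 83.8 and 63.9 CPM on day 0, 92.4, 107 and 102 CPM on day 2, 132, 123.2 and 96.5 CPM on day 2.5, and 142, 133 and 173 CPM on day 3. Its lowest values were those of het lines on day 0 and its group means were highest on day 3 in both genotypes, when each genotype lay just above its own day 2.5 range. It rose from day 0 to day 2 in wt (log2 fold change 0.32 ± 0.12 SE, adjusted p = 0.0448) and in het (log2 fold change 0.45 ± 0.10 SE, adjusted p = 0.0013). The wt call lay close to the threshold and was lost in a single fit of all 24 libraries (0.31, adjusted p = 0.0511). It was also lost without line 2 (0.27, adjusted p = 0.134) or line 3 (0.29, adjusted p = 0.163) of day 0, or line 1 (0.32, adjusted p = 0.0893) or line 3 (0.21, adjusted p = 0.211) of day 2. Its change to day 2.5 was -0.13 ± 0.13 in wt (adjusted p = 0.513) and 0.22 ± 0.11 in het (adjusted p = 0.134). The het change was called without line 3 of day 2.5 (0.35, adjusted p = 0.0104) and with library totals (0.30, adjusted p = 0.0462). Its change to day 3 was 0.32 ± 0.13 in wt (adjusted p = 0.116) and 0.31 ± 0.13 in het (adjusted p = 0.0841). With the replicate block the wt change was called (0.31, adjusted p = 0.0205). The het change was called by DESeq2 (0.34, adjusted p = 0.0364) and with no filter beyond 1 count (0.35, adjusted p = 0.00493).

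Krt19, the smallest keratin, which lacks most of the tail domain, had the largest rise of the 4 keratins from day 0 to day 3. Krt19 in wt lines 1, 2 and 3 stood at 28.1, 30.04 and 32.9 CPM on day 0, 49.1, 48.5 and 54.9 CPM on day 2, 45.5, 41.9 and 35.6 CPM on day 2.5, and 80.5, 102 and 78.2 CPM on day 3. In het lines Krt19 stood at 22.2, 23.7 and 18.4 CPM on day 0, 44.4, 40.8 and 40.6 CPM on day 2, 46.7, 52.7 and 39.5 CPM on day 2.5, and 104, 106 and 137 CPM on day 3. All day 3 libraries lay above all libraries of the other days in both genotypes. From day 0 to day 2 Krt19 rose in wt (log2 fold change 0.75 ± 0.14 SE, adjusted p = 0.000453) and in het (log2 fold change 0.99 ± 0.12 SE, adjusted p = 6.79e-06). Between day 2 and day 2.5 its change was -0.30 ± 0.15 in wt (adjusted p = 0.149) and 0.14 ± 0.12 in het (adjusted p = 0.385). The last step, to day 3, raised Krt19 2.11-fold in wt (log2 fold change 1.08 ± 0.15 SE, adjusted p = 0.00162) and 2.44-fold in het (log2 fold change 1.29 ± 0.13 SE, adjusted p = 9.30e-05).

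**Figure D3:**
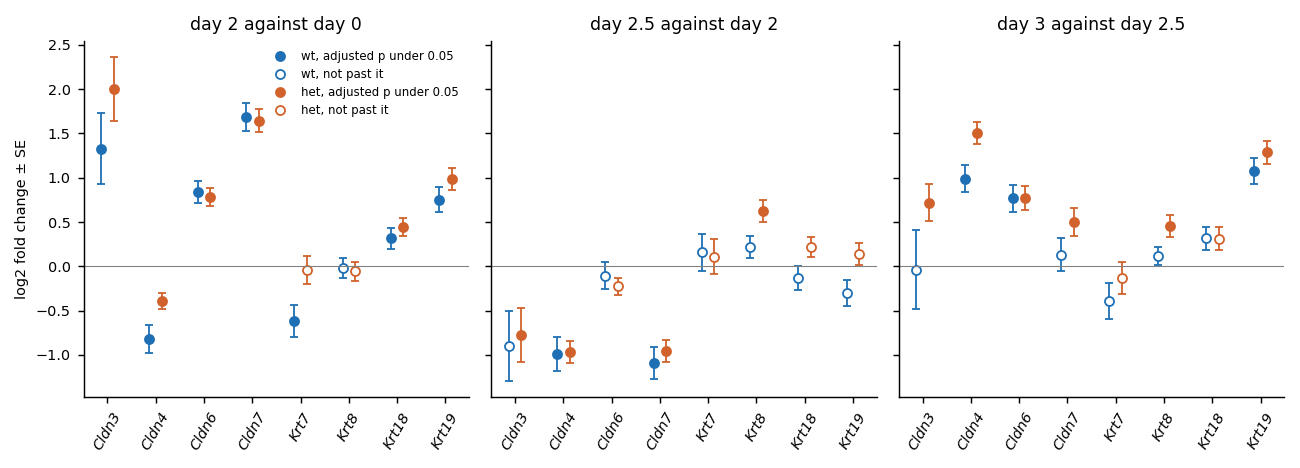
Log2 fold change ± SE of the 8 genes in each step of the time course, wt in blue and het in orange, with filled points for an adjusted p under 0.05. Cldn7 rises and then falls by similar amounts in wt and het, and Cldn4, Cldn6 and Krt19 are filled in both genotypes from day 2.5 to day 3.

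Counted together, 7 of the 8 genes were called from day 0 to day 2 in wt (5 higher and 2 lower), where 44.3% of all 15521 genes tested were called, 22.4% higher and 21.9% lower. In het it was 6 of 8 (5 higher and 1 lower), beside 56.1%, 28% higher and 28.1% lower. From day 2 to day 2.5, 2 of 8 were called in wt, both lower, beside 29.1% of all genes, 14.6% higher and 14.5% lower. In het it was 4 of 8 (1 higher and 3 lower), beside 44.7%, 21.8% higher and 22.9% lower. In the step to day 3, 3 of 8 were called in wt, all higher, beside 19.1% of all genes, 8.99% higher and 10.1% lower. In het it was 6 of 8, all higher, beside 29.8%, 13.8% higher and 16% lower, and without line 3 of het day 3 it was 3 of 8. The median log2 fold change of the 8 in these steps was 0.53, -0.21 and 0.22 in wt and 0.62, -0.058 and 0.61 in het, and the median over all genes lay between -0.018 and 0.024. Adjacent steps share the libraries of the day between them, so a high or low value there enters both with opposite sign. Without the shallow library of wt line 2 on day 2.5, no call among the 8 genes changed in either wt step that uses it, while the count of all genes called from day 2.5 to day 3 fell to 1574 from 2923.

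Genes that work with claudins were counted by fixed lists. Of 25 tight junction partners, 12 rose and 4 fell from day 0 to day 2 in wt and 13 rose and 4 fell in het. From day 2 to day 2.5 2 rose and 11 fell in wt and 3 rose and 14 fell in het, and from day 2.5 to day 3 8 rose and 2 fell in wt and 11 rose and 3 fell in het. Of all genes tested, the shares that rose and fell in these steps were 22.4% and 21.9%, 14.6% and 14.5%, and 8.99% and 10.1% in wt, and 28% and 28.1%, 21.8% and 22.9%, and 13.8% and 16% in het. The partners had a median log2 fold change in these steps of 0.43, -0.38 and 0.23 in wt and 0.35, -0.48 and 0.33 in het. Ocln, which encodes occludin, went up by 1.28, down (-0.85) and up by 0.79 on the log2 scale in wt, and 1.70, -1.04 and 0.68 in het, with every step called. Tjp1, which encodes the scaffold ZO-1, was called in the same directions, at 0.43, -0.46 and 0.58 in wt and 0.37, -0.37 and 0.44 in het. Cgn (cingulin) gave 0.54, -1.31 and 0.57 in wt and 0.42, -1.25 and 0.86 in het, with the last wt step at adjusted p = 0.0614. The largest changes of the list to day 2 were the fall of Jam2, an adhesion molecule of the junction (-5.44 in wt and -5.21 in het), and the rise of Crb3, an apical polarity protein (1.69 and 2.06). Tjp3, the scaffold ZO-3, fell to day 2.5 (-1.95 and -1.92) and rose to day 3 (1.14 and 1.29), whereas Lsr, a tricellular junction receptor, did the reverse (0.71 and 0.72, then -0.43 and -0.39). Cldn12, the other abundant claudin, rose from day 0 to day 2 (0.66 in wt and 0.53 in het) and again to day 2.5 in het (0.38). Cldn9, the neighbour of Cldn6, passed the test in no step on 2 to 47 counts per library, with log2 fold changes of -1.85 to 1.63. Its het fall to day 2.5 was called by DESeq2 (adjusted p = 0.0315), in a single fit of all 24 libraries (adjusted p = 0.0292) and with no filter beyond 1 count (adjusted p = 0.0322). Without het line 1 of day 2.5 this fall (-2.89, adjusted p = 0.0252) and the rise to day 3 (2.58, adjusted p = 0.02) were both called. That rise was called with no filter as well (adjusted p = 0.02). Cldn12 and Cldn9 were 2 of 3 other claudins tested, and the third, Cldn5, was called in no step. Some wt calls of the partners were lost on leaving out 1 library. These were Tjp1 to day 2.5 without line 2 of day 2.5 (adjusted p = 0.0628) and Ocln to day 3 without line 3 of day 3 (adjusted p = 0.0516). Tjp3 (adjusted p = 0.081 to 0.126) and Lsr (adjusted p = 0.0531 to 0.104) lost the call to day 3 without line 2 or 3 of day 2.5 or line 1 or 3 of day 3.

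Keratin partners, other filament genes and epithelial regulators were counted in the same way. Of 12 or 13 desmosome genes tested, 3 rose and 5 fell to day 2 in wt and 4 rose and 5 fell in het, 2 rose and 3 fell to day 2.5 in wt and 3 rose and 6 fell in het, and 3 rose and 0 fell to day 3 in both. Several of these counts lie near the shares of all genes given above, as with 4 and 5 of 13 to day 2 in het beside 28% and 28.1%. The median log2 fold change of the desmosome genes in the 3 steps was -0.33, -0.20 and 0.21 in wt and 0.075, -0.44 and 0.30 in het. Dsp (desmoplakin, which ties keratin to the desmosome) fell to day 2 (-0.40 in wt and -0.43 in het) and rose to day 3 (1.17 and 1.22), in the same step as Krt19. Jup (plakoglobin) fell to day 2 (-0.72 and -0.59) and to day 2.5 (-0.58 and -0.64), and Dsc2, a desmosomal cadherin, rose to day 2 (1.31 and 0.96) and to day 3 (0.69 and 0.70). Of 10 to 14 other keratin and vimentin-type filament genes tested, 2 rose and 5 fell to day 2 in wt and 4 rose and 5 fell in het, 6 rose and 0 fell and 5 rose and 2 fell to day 2.5, and 0 rose and 3 fell and 3 rose and 5 fell to day 3. The median log2 fold change of these in the 3 steps was -0.39, 0.94 and 0.041 in wt and 0.28, 0.29 and -0.37 in het. Krt17 and Krt42 fell to day 2 from group means of 15.6 and 19.8 CPM in wt, with log2 fold changes of -5.57 and -6.55 in wt and -3.61 and -7.38 in het, which rest on 0 to 22 and 0 to 5 counts per library on day 2. Vim (vimentin, the filament of mesenchymal cells) fell to day 2 (-0.61 and -0.46) and rose to day 2.5 (1.14 and 1.26), when Cldn4 and Cldn7 fell. Of 24 epithelial regulators and surface genes tested, 3 rose and 10 fell to day 2 in wt and 7 rose and 10 fell in het, and of 22 and 23 tested, 1 rose and 5 fell to day 2.5 in wt and 4 rose and 12 fell in het. Grhl2, a transcription factor of claudin and cadherin genes, fell to day 2 (-1.26 and -0.90) as did Klf5 (-1.24 and -1.91), while Epcam, the adhesion molecule that binds Cldn7, rose (0.71 and 0.90). From day 2 to day 2.5 Epcam (-0.98 and -1.22), Cdh1, which encodes E-cadherin (-0.91 and -1.16), and Esrp1, an epithelial splicing factor (-1.11 and -1.27), all fell in both genotypes. To day 3, 2 of 22 rose and 3 fell in wt, and 6 of 24 rose and 1 fell in het. Cdh1 was at -0.23 in wt (adjusted p = 0.463) and 0.30 in het (adjusted p = 0.0447). That het call was lost on leaving out any 1 library but line 3 of day 2.5 (adjusted p = 0.0707 to 0.167) and in a single fit of all 24 libraries (adjusted p = 0.157). In wt, Dsp to day 2 was lost without line 2 or 3 of day 0 or line 1 or 3 of day 2 (adjusted p = 0.0757 to 0.13), with library totals (adjusted p = 0.0707) and with a filter of 1 count (adjusted p = 0.0519). Jup to day 2.5 was lost in wt without line 1 or 3 of day 2 or line 2 or 3 of day 2.5 (adjusted p = 0.0624 to 0.162). Dsc2 to day 3 was lost in wt without line 1 or 3 of day 2.5 or line 1 or 2 of day 3 (adjusted p = 0.0506 to 0.0946) and in het without line 2 of day 2.5 or line 1 or 3 of day 3 (adjusted p = 0.0636 to 0.0903). The median log2 fold change of the epithelial regulators in the 3 steps was -0.83, -0.30 and 0.031 in wt and -0.11, -0.49 and 0.22 in het.

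Het and wt lines were then compared on each day. None of the 8 genes passed the test on any day, where 0%, 0.551%, 0% and 0.00638% of all genes were called on days 0, 2, 2.5 and 3. Smchd1 itself was among those called on day 2 (adjusted p = 0.00824) and day 3 (adjusted p = 0.0307). The day 2 call of Smchd1 was lost without any 1 het library of day 2 (adjusted p = 0.0578 to 0.074), and its day 3 call without wt line 2 or 3 or het line 1 or 3 of day 3 (adjusted p = 0.133 to 0.444). edgeR gave an unadjusted p under 0.05 to 1649, 1576, 822 and 1432 genes on these days, and DESeq2 called 82, 233, 3 and 116. On day 0 all 8 fitted log2 differences (het over wt) were below 0. Cldn7 at -0.017 ± 0.16, with a mean of 13.5 CPM in both genotypes, and Cldn6 at -0.083 ± 0.11 lay within 1 SE of 0. The median of the 8 was -0.38. In 5 genes (Cldn3, Krt7, Krt8, Krt18 and Krt19) every het line lay below every wt line, beside 7% of all genes that separated in this direction. Krt8 was at -0.38 ± 0.082 (adjusted p = 0.334), Krt18 at -0.38 ± 0.11 (adjusted p = 0.334) and Krt19 at -0.53 ± 0.13 (adjusted p = 0.334). Krt8 was called without line 2 of wt day 0 (-0.44, adjusted p = 0.0433) and by DESeq2 (-0.38, adjusted p = 0.0099). On day 2 the 8 ran from -0.42 for Krt8 to 0.20 for Krt7, and Krt19 alone did not overlap, lower in het, beside 7.5% of all genes. On day 2.5 the range was -0.22 for Cldn6 to 0.24 for Cldn4 and all 8 overlapped, beside 11.6% of all genes that did not.

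On day 3 the differences were above 0 for 7 of the 8 genes, with a median of 0.43. Cldn3, Cldn4, Krt7 and Krt19 had every het line above every wt line, beside 8.52% of all genes that separated in this direction. Cldn4 had the lowest adjusted p of the 8 and stood at 0.77 ± 0.12 (adjusted p = 0.221), or 1.71-fold, with 84.7 ± 10.01 CPM in het and 49.1 ± 6.65 CPM in wt (SD, n = 3 each). It was called in a single fit of all 24 libraries (0.78, adjusted p = 0.0356) and by DESeq2 (0.77, adjusted p = 5.44e-05). It was also called with no filter beyond 1 count (0.78, adjusted p = 1.48e-05) and without line 1 of wt day 3 (0.84, adjusted p = 0.0358). The other 3 stood at 0.80 ± 0.36 for Cldn3 (adjusted p = 0.54, and 0.43 to 1.19 with 1 library left out), 0.46 ± 0.16 for Krt7 (adjusted p = 0.455) and 0.40 ± 0.13 for Krt19 (adjusted p = 0.423). Cldn6 was the exception at -0.20 ± 0.16 (adjusted p = 0.746), and ran from -0.38 to -0.052 with 1 library left out. On day 3, 13 of 25 tight junction partners, 11 of 13 desmosome genes, 8 of 12 other filament genes and 14 of 23 epithelial regulators were above 0, with none called, and the median over all genes was -0.00053.

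**Figure D4:**
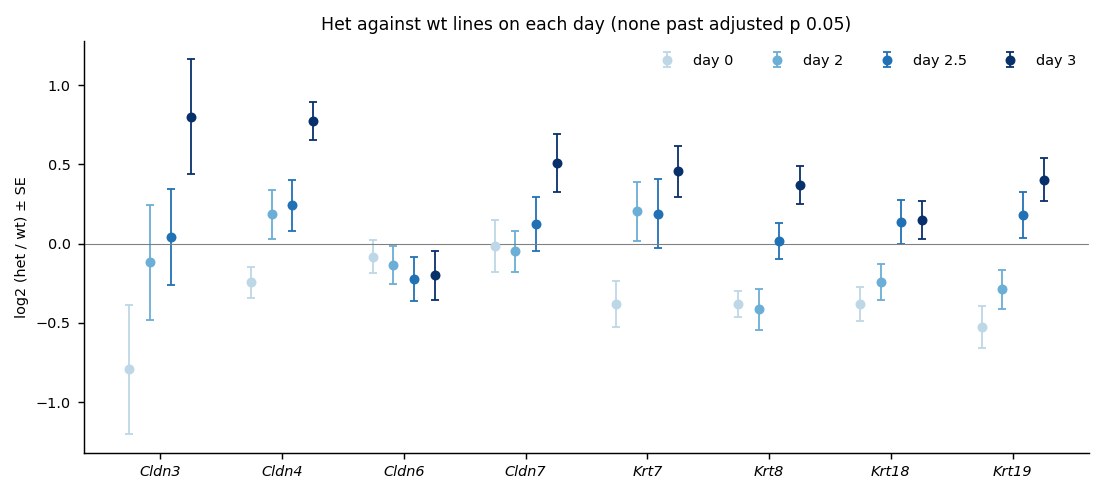
Log2 difference ± SE between 3 het and 3 wt lines for each gene, with the days as shades from light (day 0) to dark (day 3). The points of day 0 lie below 0, those of Cldn6 and Cldn7 within 1 SE of it, those of day 3 lie above 0 for 7 with Cldn6 below, and none passed an adjusted p of 0.05.

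Whether the genotypes changed differently was tested on the difference itself. In each of the 3 steps 0% of all genes were called by edgeR, with 1034, 850 and 635 genes at an unadjusted p under 0.05. The fitted difference, het minus wt, was above 0 for 5 of the 8 genes in the step to day 2, from -0.048 for Cldn6 to 0.68 for Cldn3. In the step to day 2.5 it was above 0 for 6, from -0.11 for Cldn6 to 0.45 for Krt19. For the step from day 2.5 to day 3 it was above 0 for all 8 genes, from 0.017 for Krt18, whose changes in separate fits were 0.32 in wt and 0.31 in het, to 0.77 for Cldn3. It was 0.54 ± 0.20 for Cldn4, and all 8 were at an adjusted p of 0.999 or 1. A further test, added after these values were seen, set the genotype difference of day 3 against that of day 0, and 0% of the 16549 genes were called (1455 at an unadjusted p under 0.05). The difference was 1.00 ± 0.16 for Cldn4 (adjusted p = 0.168), 0.91 ± 0.19 for Krt19 (adjusted p = 0.372), 0.74 ± 0.15 for Krt8 (adjusted p = 0.342) and -0.14 ± 0.20 for Cldn6 (adjusted p = 0.871). With the line as a replicate block Cldn4 was called (1.00, adjusted p = 0.0375), 1 of 4 genes called in that fit. Seen line by line from day 0 to day 3, Cldn4 fell by 0.81, 0.93 and 0.75 on the log2 scale in wt lines 1, 2 and 3, and changed by 0.15, -0.084 and 0.43 in the het lines. Krt7 fell by 0.85, 0.85 and 0.90 in the wt lines and changed by -0.012, -0.34 and 0.22 in the het lines. Krt19 rose in all 6, by 1.52, 1.76 and 1.25 in wt and 2.23, 2.16 and 2.90 in het. Without line 2 of het day 3 Cldn4 (1.07, adjusted p = 0.0328) and Krt8 (0.86, adjusted p = 0.0251) were called.

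Other markers moved with genotype. Of 18 endoderm markers tested on each day, 17, 18, 18 and 18 lay below 0 in het against wt on days 0, 2, 2.5 and 3. Their medians were -0.80, -1.02, -0.47 and -0.70, where those of all genes were -0.0013, 0.0018, -0.0053 and -0.00053. On day 2, 13 of the markers were called lower, beside 77 of all 15414 genes tested. Those calls depend on single libraries, since the count of all genes called on day 2 fell from 85 to 1, 3 and 0 without het line 1, 2 or 3 and to 8 without wt line 3. Their summed level was 9737 to 19479.7 CPM in wt and 6276 to 8484 CPM in het on day 2, and 6555 to 12730.4 CPM in wt and 5196 to 8379.7 CPM in het on day 3. Krt8, Krt18 and Krt19 had differences below 0 on days 0 and 2, as these markers did, and above 0 on days 2.5 (0.015, 0.14 and 0.18) and 3, when the markers were below 0. The part of the endoderm markers in these differences was not tested. Trophoblast markers, a list that contains Krt7, summed to 224 to 299.8 CPM in wt and 244 to 252 CPM in het on day 3, and surface ectoderm markers to 12.7 to 21.5 CPM and 14.6 to 23.2 CPM. The trophoblast list also holds Cdx2, which is on the NMP list, and Esrrb, which is on the pluripotency list, so its sum is not of trophoblast genes alone. From day 0 to day 2, when Krt18 and Krt19 rose, 13 of the 18 endoderm markers tested rose in wt and 14 in het, with no marker called lower, beside 22.4% and 28% of all genes that rose. Their part in that rise was not tested either.

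The make-up of the claudin and keratin transcripts shifted with these changes. On day 0 Cldn4 made up 51.1 to 55.8% of the summed claudin RPKM in wt lines and 49.1 to 55.9% in het lines, ahead of Cldn6 at 34.4 to 38.5% and 34.7 to 40.4%. On day 2.5 Cldn6 made up 58.3 to 71.96% in wt and 57.2 to 63.4% in het, and Cldn4 14.7 to 20.7% and 17.95 to 24.4%. Cldn6 had replaced Cldn4 as the leading claudin in all 6 lines. On day 3 the Cldn4 share was 17.2 to 24.5% in wt and 28.99 to 36.6% in het, and the genotypes did not overlap, nor did they for Cldn6 (62.3 to 74.8% and 49.8 to 56.2%). These shares were not tested, and an exact two-sided permutation test of 3 lines against 3 cannot go below p = 0.1. Cldn7 was at its highest share on day 2, at 18.2 to 21.7% in wt and 18.4 to 20.5% in het.

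Among the keratins, Krt19 made up 17.8 to 21.2% of the type I RPKM in wt and 17.9 to 18.5% in het on day 0, and 32.7 to 33.8% and 36.2 to 38.1% on day 3, when the genotypes again did not overlap. Krt8 made up 94.1% to 98.0% of the type II RPKM over all 24 libraries. The ratio of Krt8 to Krt18, the filament pair, stayed between 0.592 and 1.10 over all libraries with a median of 0.902. Its group means were lowest on day 2, with ranges of 0.685 to 0.862 in wt and 0.592 to 0.770 in het, and stood at 0.930 to 1.02 and 0.876 to 1.10 on day 0. Type II over type I RPKM ran from 0.475 to 0.945. Summed over all 8 genes, the level was 239 ± 9.88 RPKM on day 0 and 353 ± 28.4 RPKM on day 3 in wt, and 197 ± 10.4 and 419.6 ± 61.2 RPKM in het (SD, n = 3).

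**Figure D5:**
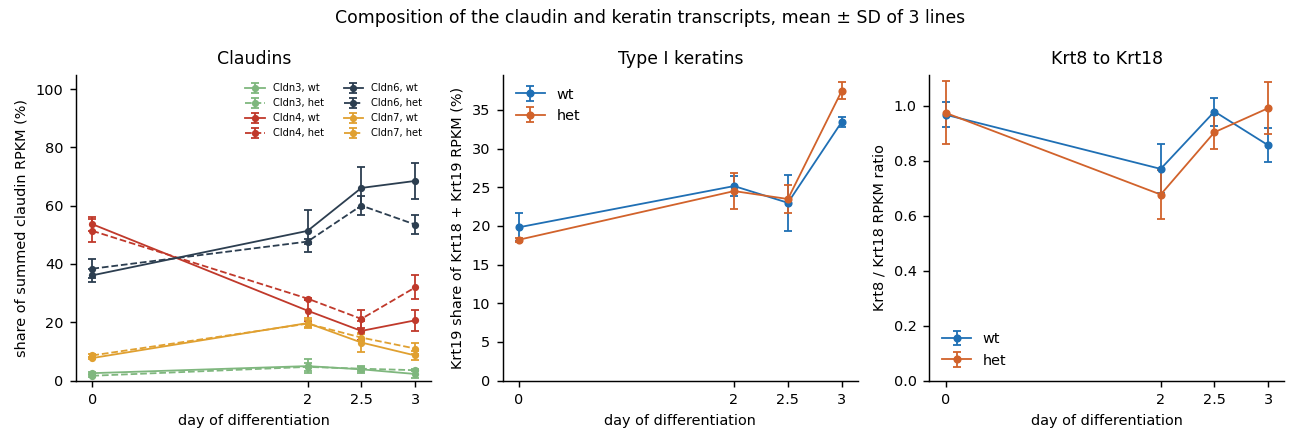
Shares of the summed claudin RPKM by gene (left; wt solid, het dashed), share of Krt19 in the type I keratin RPKM (middle) and ratio of Krt8 to Krt18 RPKM (right) against day, as mean ± SD of 3 lines. Cldn4 and Cldn6 exchange places between day 0 and day 2, and the Krt19 share is highest on day 3.

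The genes most like each member were taken from 11268 genes with a mean of at least 5 CPM by Pearson r of log2 CPM over the 24 libraries. These share lines and days, so the values are descriptions. Among the 8, Krt18 with Krt19 had the highest r over the 24 libraries at 0.902, followed by Cldn6 with Krt19 at 0.882, Krt8 with Krt18 at 0.807 and Cldn3 with Cldn7 at 0.805. After the mean of each group was removed, Krt8 with Krt18 remained at 0.705 and Krt18 with Krt19 at 0.629, whereas Cldn6 with Krt19 was 0.124. The neighbours Cldn3 and Cldn4 gave -0.027 over all libraries and 0.472 within groups. Krt7 with Cldn6 gave -0.580 over all libraries and -0.065 within groups. Outside the 8, Cldn4 was most like Gadd45b (0.921), Hspb8 (0.906) and Notch1 (0.906), Cldn6 like Plekha2 (0.965), Cryz (0.952) and Adcy6 (0.949), and Cldn7 like Gpi1 (0.963), Hpn (0.955) and Srebf2 (0.955). Cldn3 was most like Ndufa4l2 (0.850), Chchd3 (0.833) and Gm12264 (0.828). Krt19 was most like Litaf (0.950), Hes1 (0.932) and 9530068E07Rik (0.926) and Krt18 like Fosl2 (0.905), Btg2 (0.881) and Hes1 (0.876), and Hes1, a target of Notch signalling, stood in both lists. Krt8 was most like Slc39a1 (0.857), Fam171a1 (0.856) and Arpc5 (0.852), and Krt7, with the weakest likeness, like Psmg4 (0.791), Pabpn1 (0.714) and Rpl15 (0.706). Against the mean of the 8 standardised members, Litaf came first (0.875), followed by Hscb (0.849) and by Actn1 (0.842) and Cnn2 (0.840), which encode an actin cross-linker and a calponin, and then by Pde6d (0.839), Sidt2 (0.836), Arl4c (0.831), Fam234a (0.828), Tap1 (0.820) and Fah (0.815).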

How the data were processed

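RNA-seq libraries from the 24 samples were sequenced as 75-base single-end reads from poly(A) RNA (TruSeq stranded or non-stranded kit, not stated for which library). The authors trimmed reads with Trim Galore 0.4.4, aligned them with HISAT2 2.0.5 to GRCm38.p6 and deposited raw counts per gene from SeqMonk, and whether counting used strand is not given in the sources used here. Deposited tables of log2 RPKM for Hox genes and differentiation factors and 8 columns of group means were not used. Genes were mapped to GENCODE M21 for position and length.

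Counts were tested with edgeR 4.0.16 (R 4.3.3) by the quasi-likelihood test with TMM factors, filterByExpr and Benjamini-Hochberg adjustment over all genes tested, on 2 groups of 3 libraries, or 12 libraries for an interaction. The SE of a log2 fold change is its absolute value divided by the square root of the F of this test. A value within 1 SE of 0 is thus one with an F under 1. CPM are TMM-scaled and RPKM divide these by merged exon length. Scripts were tested on simulated data. Alternatives were DESeq2 1.42.0, its size factors, library totals, a filter of 1 count, 1 fit of all libraries, each library left out, and a replicate block. Libraries with the same line number and genotype are the same line, so the number pairs days by design, and the residuals of such pairs correlated at -0.095 to 0.42. The main tests of steps and interactions did not use this pairing, which entered only through the replicate block. Wt and het numbers are not paired. Total counts of 7.10 to 20.8 M (units of 1000000) set the precision of low genes.

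The 8 genes and the partner lists (other claudins, tight junction, desmosome and other filament genes, epithelial regulators, and cell type markers) were chosen with earlier results of these data known. Beside the 8, 14 fixed partners, the 2 highest and 2 lowest called genes of a list, and the 3 genes most like a member were eligible to be named, and other genes in the text were picked with their values known. A gene of the tight junction list and the sequence at 1 promoter are not reported here.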

Additional observations from a re-analysis of the deposited data

Results flagged for a closer look

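For 3 genes the order of the genotypes was opposite at the ends of the time course, in that every het line lay below every wt line on day 0 and above every wt line on day 3. Of the 14433 genes with a mean of at least 1 CPM, 84 (0.582%) had this order and 41 (0.284%) the reverse. The difference between the genotype contrasts of day 3 and day 0 was 1.59 on the log2 scale for Cldn3 (adjusted p = 0.508), 0.82 for Krt7 (adjusted p = 0.438) and 0.91 for Krt19 (adjusted p = 0.372) in edgeR's quasi-likelihood test of the interaction, so none passed. Krt19 in het lines also lay below all wt lines on day 2 and above them on day 3, where the log2 differences between genotypes were -0.29 and 0.40, or 0.69 apart, and this difference was not tested. Of the same genes, 42 (0.291%) had this order on days 2 and 3. Outlying samples were not tested in these groups of 3 lines.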

How the results depend on the processing

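With edgeR and a filter of 1 count in place of the filter on low counts, 369, 384, 87 and 274 genes were called between genotypes on days 0, 2, 2.5 and 3 (main 0, 85, 0 and 1), of which 3 (Krt8, Krt18 and Krt19), 1 (Krt8), 0 and 3 (Cldn4, Krt8 and Krt19) were among the 8, and DESeq2 called 82, 233, 3 and 116, of which 1, 0, 0 and 1. One fit of all 24 libraries called 1, 23, 1 and 15 genes on these days, with 1 of the 8, Cldn4, on day 3. For the interactions, dropping the filter gave 58, 33 and 23 genes for the steps to day 2, day 2.5 and day 3 (main 0 each), and DESeq2 gave 10 for the step to day 2. The cause of these differences was not tested. The replicate block, which pairs libraries of 1 line, gave 4687 genes from day 2.5 to day 3 in wt (main 2923), 2 for the interaction to day 2 and 4, with 1 of the 8, for day 3 against day 0. Among the named genes it also called Cgn from day 2.5 to day 3 in wt and Cldn9 and Vim in het, and lost Synm from day 2 to day 2.5 in het, and apart from the calls given above for Cldn3, Cldn4 and Krt18 it changed no call among the 8. Library totals in place of TMM factors turned the sign of 3 changes near 0, of Krt8 from day 0 to day 2 in wt (0.024), Krt7 in het (0.00088) and Krt7 in the interaction to day 2.5 (0.0089), and dropping the filter that of Dsp from day 2 to day 2.5 in wt (-0.0054).

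Each library was also left out in turn, and these are the ranges of log2 fold changes and counts of calls where a sign turned or a count moved by more than 1.5 times. In wt from day 0 to day 2, Krt8 ran from -0.12 to 0.059. In wt from day 2 to day 2.5, Dsp ran from -0.14 to 0.15, Cldn6 from -0.23 to 0.026, Krt7 from -0.00037 to 0.29 and Klf5 from -0.080 to 0.56. In wt from day 2.5 to day 3, Cldn3 ran from -0.42 to 0.32, Klf5 from -0.13 to 0.52, the genes called from 1281 to 2721 and Epcam from -0.23 to 0.0080. In het from day 0 to day 2, Krt7 ran from -0.15 to 0.068 and Krt8 from -0.22 to 0.018. In het from day 2 to day 2.5, Krt7 ran from -0.064 to 0.30. In het from day 2.5 to day 3, Krt7 ran from -0.29 to 0.051, Cldn12 from -0.021 to 0.13, the genes called from 3014 to 4229 and the calls among the 8 from 3 to 6. Between genotypes on day 0, the genes called ran from 0 to 68, Cldn7 from -0.10 to 0.047, the calls among the 8 from 0 to 1 and Cldn6 from -0.16 to 7.8e-05. Between genotypes on day 2, the genes called ran from 0 to 211, Cldn3 from -0.42 to 0.31 and Cldn7 from -0.14 to 0.020. Between genotypes on day 2.5, Krt8 ran from -0.069 to 0.076, Cldn3 from -0.15 to 0.18, Cldn7 from -3.2e-05 to 0.27, Krt7 from -0.0079 to 0.36 and the genes called from 0 to 3. Between genotypes on day 3, the genes called ran from 0 to 93 and the calls among the 8 from 0 to 1. In the interaction of genotype with day 2 against day 0, Cldn7 ran from -0.12 to 0.027, Cldn6 from -0.18 to 0.032, the genes called from 0 to 1 and Krt8 from -0.22 to 0.052. In the interaction of genotype with day 2.5 against day 2, the genes called ran from 0 to 2, Cldn3 from -0.30 to 0.44, Cldn4 from -0.075 to 0.21, Cldn6 from -0.23 to 0.033 and Krt7 from -0.21 to 0.14. In the interaction of genotype with day 3 against day 2.5, Krt18 ran from -0.10 to 0.14, Cldn6 from -0.15 to 0.16 and the genes called from 0 to 1. In the interaction of genotype with day 3 against day 0, the genes called ran from 0 to 4, Cldn6 from -0.32 to 0.037 and the calls among the 8 from 0 to 2. The genes called from day 2.5 to day 3 in wt fell past 1.5-fold without line 2 of day 2.5 (1574) and without line 2 (1352) or line 3 (1281) of day 3, and in het without line 3 of day 3 (3014, main 4710). In the main fits some differences of several SE between genotypes did not pass the adjustment over all genes, as for Cldn4 on day 3.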
